A study of Mus musculus with 158 samples.

Results

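Cell division genes were read here as 35 gene rows of the mouse single-cell RNA count table, matched by symbol, out of 21956 gene rows in all. They comprised 15 genes that act in or just before S phase, when DNA is copied, and 20 genes that act from the end of S phase through mitosis. All 35 symbols had a row, and the genes lie on 14 chromosomes of the mouse genome. The question here was in which cells of the brain cultures and slices these genes were read, and whether the S phase genes and the mitosis genes were read in the same cells.

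Each library held the polyadenylated RNA of 1 untreated mouse cell drawn up with a patch pipette, and 158 libraries came from 149 cells. There were 86 astrocytes from primary culture of cortex. Of these, 3 were C57/BL6 cells at 7 days in culture, and 70, 5 and 8 were C57/BL6/N cells at 12, 14 and 15 days. A further 8 libraries came from neurons of C57/BL6 hippocampal culture at 15 days. Their titles hold 2 pairs that share a stem and differ in the last letter, cells 1 with 2 and 3 with 4, and whether a pair is 1 cell is not stated. Their log2 CPM had r = 0.72 and 0.71 within these pairs, and 0.63 to 0.90 in the other 26 pairs of hippocampal libraries. These values cannot show whether a pair is 1 cell, and all 8 libraries were counted as cells. Acute slices of C57/BL6/N brain gave 15 CA1, 5 CA3 and 22 cortical neurons. Primary culture of C57/BL6/N cortex gave 13 neurons, with 3 at 6 days, 3 at 10 days, 4 at 13 days and 3 at 15 days. No age of the animals, no sex, and no animal, dissection or culture dish was given for any cell. Each group was therefore treated as 1 sample. No p-value is given, and every difference between groups is a difference between these sets of cells.

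Libraries held between 535369 and 38680739 counts, and the median cell held 15369172 counts among astrocytes and 13026965 among cultured cortical neurons, against 4125369 to 5744561 in the 3 slice groups. A gene was called detected in a cell when it had at least 5 counts after the cell had been thinned at random to 1000000 counts, which 148 of the 149 cells allowed. At that depth the median number of genes detected was 4928.5 in astrocytes, 7496 in hippocampal culture neurons, 1900 in CA1, 2170 in CA3, 1813 in cortical slice neurons and 4447 in cultured cortical neurons. More astrocyte than neuron markers were detected in 84 of 86 astrocytes, 0 of 8 hippocampal culture neurons, 1 of 14 CA1, 0 of 5 CA3, 5 of 22 cortical slice neurons and 3 of 13 cultured cortical neurons. Those 3 were cultured cortical neurons 4, 6 and 7, and the results that rest on them are given with and without them.

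A cell that is about to divide loads a ring of MCM proteins on its DNA as a helicase, raises its supply of deoxynucleotides and copies its genome with the help of the sliding clamp PCNA. E2F transcription factors switch many of these genes on at the start of S phase. Later, the kinase CDK1 with cyclins A and B drives the cell into mitosis, where kinases, centromere and spindle proteins separate the chromosomes, and the anaphase-promoting complex ends the phase by marking cyclins for destruction. Many mitosis genes carry CCAAT boxes, which NF-Y binds, and the cell cycle genes homology region (CHR), through which the DREAM and MuvB complexes act. Neurons are postmitotic, whereas astrocytes divide in the early postnatal brain and in primary culture.

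The upstream sequences below show those elements in the 3 S phase and 3 mitosis members with the most searched words in them. Cdc6 was taken by name order among Cdc6, Mcm7, Rrm1 and Rrm2, which tied, and Cdk1 likewise among Cdk1 and Mki67. They are the 250 bases before the RefSeq transcript start in GRCm38.p6, 5′ to 3′ on the gene's strand. For Mcm6, Mcm5 and Cdc6, capitals mark the E2F words, and for Top2a, Ube2c and Cdk1 they mark the CHR and CCAAT words. E2F was searched as the word TTGGCGC, next as the word TTCGCGC, then also as the word TTCCCGC, and last of all as the word TTGCCGC. CHR was searched as TTTGAA, with TTCGAA as its other form, and the CCAAT box by its own letters. Both strands were searched, so a word can stand as its reverse complement, and each of 2 overlapping words was counted. The Mcm6 window is chr1:128359706-128359955 on the minus strand with 4 E2F words, in 2 overlapping pairs. The Mcm5 window is chr8:75109259-75109508 on the plus strand with 3. The Cdc6 window is chr11:98907901-98908150 on the plus strand with 1, and it lies within the gene as GENCODE annotates it.
Mcm6: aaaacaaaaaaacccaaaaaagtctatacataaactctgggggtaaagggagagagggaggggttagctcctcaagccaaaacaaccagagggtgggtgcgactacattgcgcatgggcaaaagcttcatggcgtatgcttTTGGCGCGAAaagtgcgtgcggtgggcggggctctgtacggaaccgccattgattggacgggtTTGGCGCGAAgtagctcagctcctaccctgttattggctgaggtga
Mcm5: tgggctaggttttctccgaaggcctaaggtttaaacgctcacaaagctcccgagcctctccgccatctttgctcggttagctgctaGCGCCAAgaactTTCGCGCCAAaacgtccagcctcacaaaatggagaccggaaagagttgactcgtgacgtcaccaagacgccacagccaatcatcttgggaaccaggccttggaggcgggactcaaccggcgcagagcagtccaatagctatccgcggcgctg
Cdc6: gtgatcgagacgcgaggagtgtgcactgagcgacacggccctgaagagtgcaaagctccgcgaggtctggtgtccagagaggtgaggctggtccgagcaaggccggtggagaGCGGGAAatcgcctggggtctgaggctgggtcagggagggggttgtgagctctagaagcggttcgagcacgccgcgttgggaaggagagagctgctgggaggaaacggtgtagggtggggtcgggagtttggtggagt

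The Top2a window is chr11:99024190-99024439 on the minus strand, with 4 CHR words and 6 CCAAT words. The Ube2c window is chr2:164769679-164769928 on the plus strand, with 1 CHR word and 6 CCAAT words. The Cdk1 window is chr10:69352913-69353162 on the minus strand, with 2 CHR words and 3 CCAAT words. The Ube2c and Cdk1 windows reach into the first bases of the GENCODE gene.
Top2a: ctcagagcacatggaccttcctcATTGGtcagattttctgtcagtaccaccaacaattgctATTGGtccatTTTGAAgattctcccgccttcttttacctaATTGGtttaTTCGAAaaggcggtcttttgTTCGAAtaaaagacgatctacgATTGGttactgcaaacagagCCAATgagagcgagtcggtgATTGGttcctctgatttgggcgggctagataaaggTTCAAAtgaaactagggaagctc
Ube2c: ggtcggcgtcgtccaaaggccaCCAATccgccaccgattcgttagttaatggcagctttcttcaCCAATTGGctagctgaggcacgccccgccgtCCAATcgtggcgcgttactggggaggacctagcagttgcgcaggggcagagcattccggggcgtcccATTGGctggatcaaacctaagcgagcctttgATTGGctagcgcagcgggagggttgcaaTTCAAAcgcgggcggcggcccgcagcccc
Cdk1: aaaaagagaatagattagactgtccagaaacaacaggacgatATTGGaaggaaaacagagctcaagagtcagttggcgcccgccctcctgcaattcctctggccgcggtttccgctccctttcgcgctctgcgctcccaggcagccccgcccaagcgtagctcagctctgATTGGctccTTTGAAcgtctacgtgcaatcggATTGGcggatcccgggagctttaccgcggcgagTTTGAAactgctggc

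RefSeq promoters of 300 bases, 250 before and 50 after the start, were matched for 29 of the 35 members and gave 31 windows. Mcm4, Gins2, Ccne2, Ccna2, Aurkb and Tpx2 had none in the table used. A CHR word was present in 13 of 18 windows of mitosis members (72.2%) and 2 of 13 of S phase members (15.4%), beside 19.2% of all 32851 promoter windows. A CCAAT word was present in 16 of 18 (88.9%) and 9 of 13 (69.2%), beside 37.4% of all windows. An E2F word was present in 3 of 18 (16.7%) and 9 of 13 (69.2%), beside 9.57% of all windows. The S phase and the mitosis members thus differed in which words their windows held, and these are matches of letters, not measured binding.

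**Figure D1:**
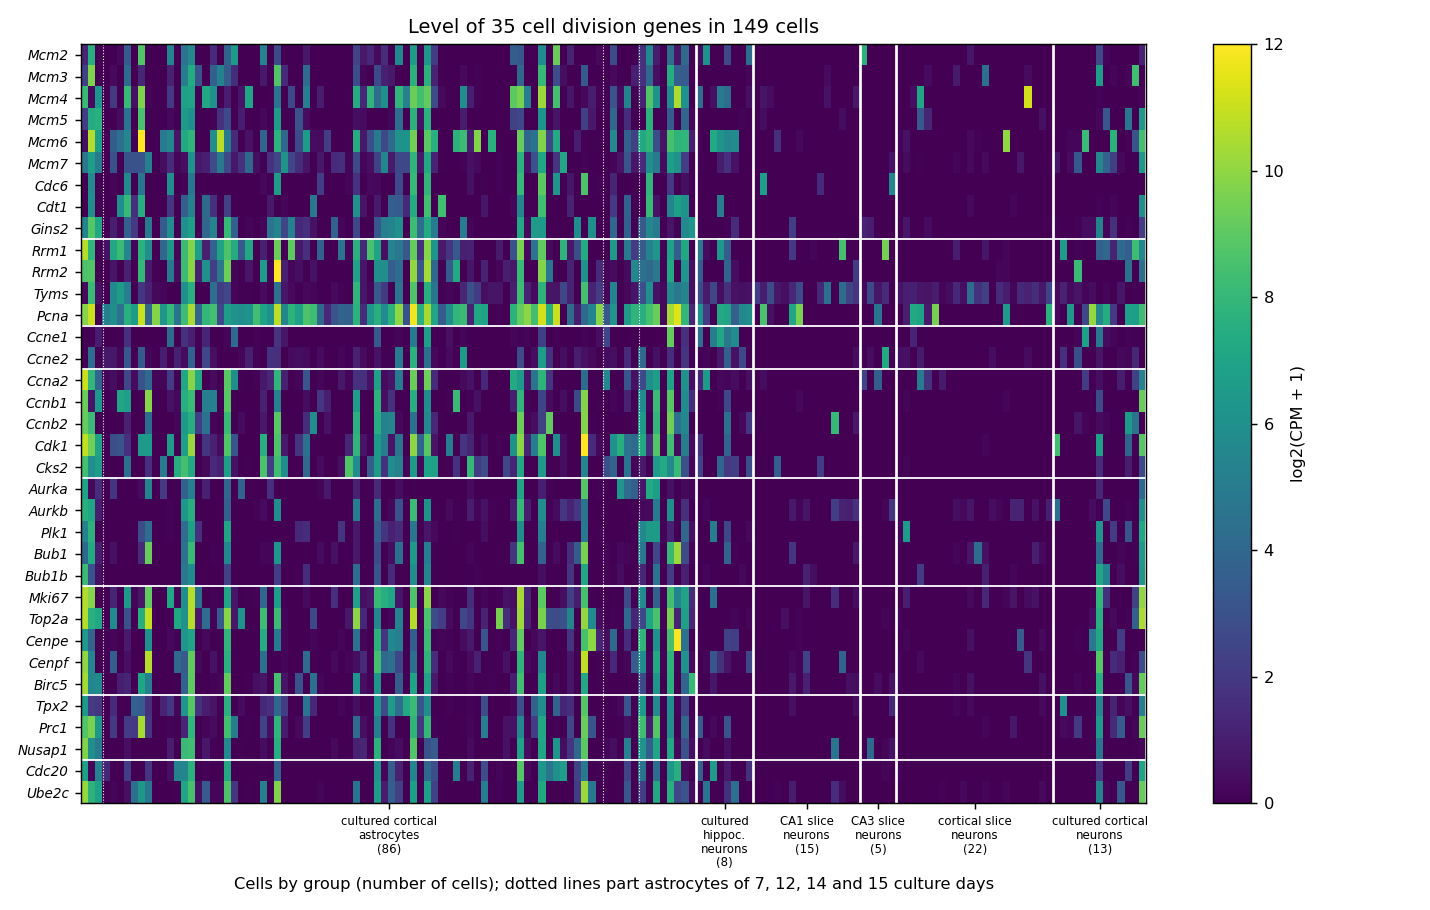
Level of the 35 cell division genes in each of 149 cells, as log2(CPM + 1), with genes in rows by role and cells in columns by group; dotted lines separate the astrocyte ages. Many mitosis rows are filled together in some astrocyte columns and few or none in others, while Pcna is filled in most astrocyte columns, and the slice columns are nearly empty.

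Pcna (chr2:132249162-132253314, minus strand) encodes the clamp that holds the polymerase on DNA, and it was the member detected in most astrocytes, in 74 of 86 (86%, exact binomial 95% interval 76.9 to 92.6%). Levels are given in CPM, the counts per 1000000 summed counts of a group, with exact Poisson 95% intervals that cover counting error only. The binomial intervals treat the cells as independent draws, and neither kind covers differences between animals or cultures. Pcna was at 442 CPM (441 to 444) in astrocytes, 67.4 CPM in hippocampal culture neurons, 166 CPM in CA1, 2.62 CPM in CA3, 52.6 CPM in cortical slice neurons and 88.4 CPM (87.2 to 89.7) in cultured cortical neurons. Single astrocytes ran from 0 through a median of 119.1 CPM to 3489.7 CPM in astrocyte 60, and cultured cortical neurons from 0 through 48.8 CPM to 1084 CPM in neuron 13. The ranges of both groups overlap over most of their length. In neurons Pcna was detected in 7 of 8 hippocampal culture cells and 9 of 13 cultured cortical cells, against 3 of 14 CA1, 1 of 5 CA3 and 5 of 22 cortical slice cells, and 85.2% of the CA1 counts came from CA1 neuron 7, at 756 CPM. That cell had 10 of 10 microglia markers detected and 3 of 20 astrocyte markers, and their part in its Pcna level was not tested. PCNA also serves DNA repair.

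Rrm1 encodes the large subunit of ribonucleotide reductase, which makes deoxynucleotides, and it came next among astrocytes, in 47 of 86. It was at 142 CPM in astrocytes, with a median cell at 9.27 CPM and astrocyte 1 at 1615 CPM, against 49.8 CPM in cultured cortical neurons, where 7 of 13 cells had it and neuron 5 held 72.9% of the counts. In CA3 all Rrm1 counts came from neuron 4, at 709 CPM. Tyms, thymidylate synthase, was the supply gene detected in fewest astrocytes, in 27 of 86. It stood at 35.99 CPM in astrocytes and 0.253 CPM in cultured cortical neurons, where no cell passed the detection threshold. The remaining supply gene, Rrm2, the inducible subunit of the same reductase, was detected in 33 of 86 astrocytes and 3 of 13 cultured cortical neurons, and astrocyte 41 held 44% of its astrocyte counts; it is named here after its values were seen.

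Mcm6, a subunit of the replicative helicase, was detected in 44 of 86 astrocytes and 4 of 13 cultured cortical neurons. It was at 208 CPM in astrocytes and 87.5 CPM in cultured cortical neurons, and its astrocytes ran from 0 through a median of 5.89 CPM to 9493 CPM in astrocyte 10, which held 38.7% of the counts. In cortical slice neurons 99.9% of its counts came from neuron 16, a cell with 18 of 20 astrocyte markers and 17 of 20 neuron markers detected. Gins2, a subunit of the GINS complex that activates the helicase, was detected in 39 of 86 astrocytes, at 32.3 CPM, and in 1 of 13 cultured cortical neurons, at 2.64 CPM. Cdc6, which loads the helicase, was the one detected in fewest astrocytes, in 15 of 86. It had 31.8 CPM in astrocytes and no count in the 13 cultured cortical neurons, which makes it at least 2218-fold higher in astrocytes, taking 3 counts over the neuron group as the floor. Mcm7 was detected in 29 of 86 astrocytes, at 20.2 CPM, and 4 of 13 cultured cortical neurons, at 12.1 CPM. Both Gins2 and Mcm7 share exonic bases with genes on the opposite strand (Gse1 for Gins2, and Ap4m1 and Cops6 for Mcm7), and their values are uncertain because no source used here gives the strand setting of the counting.

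The G1/S cyclins Ccne1 and Ccne2, which activate CDK2 at the entry to S phase, were detected in 6 and 12 of 86 astrocytes. Ccne1 was at 8.82 CPM in astrocytes, and 67.5% of those counts lay in astrocyte 14, at 570.3 CPM. In hippocampal culture neurons Ccne1 was at 36.1 CPM, detected in 5 of 8 cells, with 18.4, 0, 33.3, 141, 27.3, 53.4, 0 and 0 CPM in cells 1 to 8. In cultured cortical neurons it was at 19.9 CPM, detected in 2 of 13, with 92.7% of the counts in neuron 10. The hippocampal counts were thus spread over a larger share of the cells than those of the astrocytes or the cultured cortical neurons. Ccne2 was at 8.61 CPM in astrocytes and 0.707 CPM in cultured cortical neurons, and it shares exonic bases with Ints8 on the opposite strand.

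**Figure D2:**
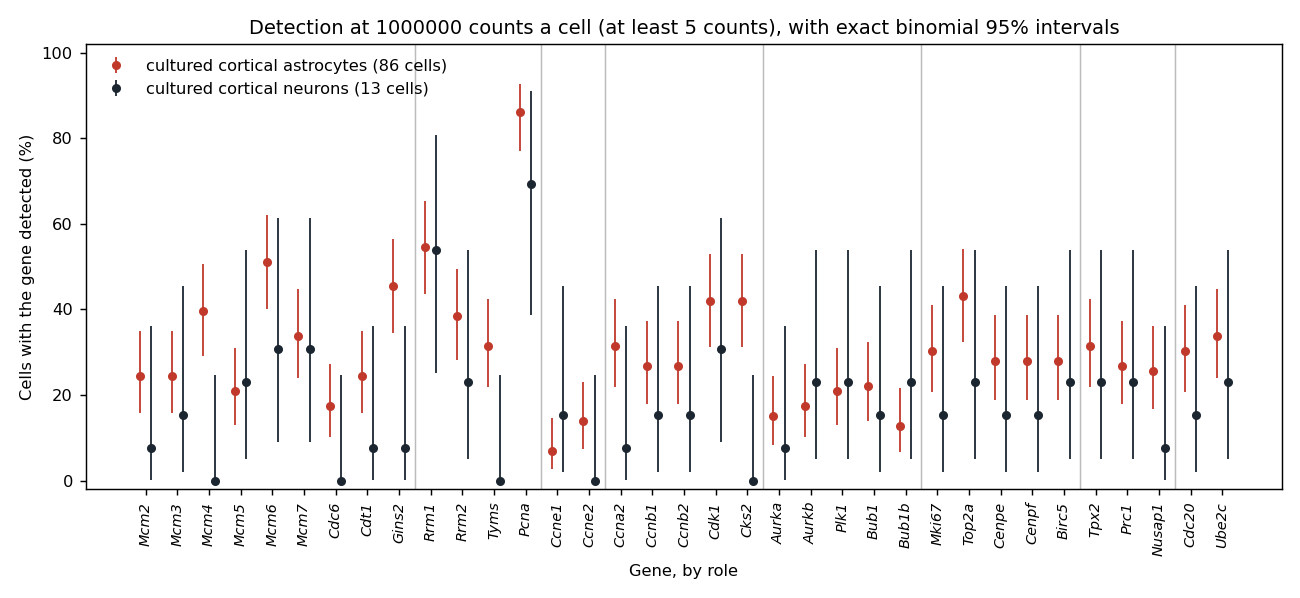
Share of cells in which each member was detected (at least 5 counts at 1000000 counts a cell), in percent, for 86 astrocytes and 13 cultured cortical neurons. Bars are exact binomial 95% intervals, which treat the cells as independent draws. Pcna stands highest in both groups, at 86% of astrocytes and 69.2% of neurons, and for most mitosis genes the astrocyte point lies above the neuron point with overlapping intervals.

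Among the mitosis genes, Cdk1 (the kinase that drives entry into mitosis) and Cks2 (a small subunit bound to it) were each detected in 36 of 86 astrocytes. Cdk1 was at 228.01 CPM in astrocytes, from 0 through a median of 1.54 CPM to 8403.5 CPM in astrocyte 84, which held 42.9% of the counts. In cultured cortical neurons Cdk1 was at 70.4 CPM, detected in neurons 6, 1, 7 and 4 at 473.4, 322.1, 116.1 and 13.8 CPM. Cks2 was at 51.8 CPM in astrocytes and at 0.626 CPM in cultured cortical neurons, where no cell passed the threshold. The astrocyte with the highest Cks2 CPM held 4.63% of the astrocyte counts. Astrocyte 41, at a lower CPM in a deeper library, held a larger share. Ccnb1 and Ccnb2, the B cyclins that partner Cdk1, were each detected in 23 of 86 astrocytes, the fewest of this role. Ccnb1 was at 62.6 CPM in astrocytes and 56.8 CPM in cultured cortical neurons, and 99.5% of the neuron counts came from neuron 6. Ccna2, cyclin A, shares exonic bases with Exosc9 on the opposite strand and stood at 90.7 CPM in astrocytes and 4.77 CPM in cultured cortical neurons; its values were seen before it was named.

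Bub1, a kinase of the spindle checkpoint, was detected in 19 of 86 astrocytes, at 42.2 CPM, and in 2 of 13 cultured cortical neurons, at 9.10 CPM. Plk1, a kinase of centrosomes and kinetochores, was detected in 18 of 86 astrocytes, at 11.1 CPM, and in 3 of 13 cultured cortical neurons, at 17.9 CPM. Bub1b, the checkpoint protein BubR1, was detected in fewest, 11 of 86 astrocytes, at 8.93 CPM, and in 3 of 13 cultured cortical neurons, at 18.7 CPM. Astrocyte 1 held 40.8% of the Bub1b counts and astrocyte 17 held 23.6% of the Bub1 counts. These kinases were read in few cells, so single cells set much of each group level.

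Top2a (chr11:98992943-99024189, minus strand) encodes topoisomerase II alpha, which untangles sister chromatids. It was detected in 37 of 86 astrocytes, at 190.5 CPM in the group, from 0 through a median of 1.51 CPM to 1901 CPM in astrocyte 15. In cultured cortical neurons it was at 147 CPM (145 to 148), but 92.7% of those counts lay in neuron 6, at 1485 CPM, and the 2 other cells that had it were neuron 7 at 183 CPM and neuron 5 at 11.9 CPM. Mki67 (chr7:135689784-135716361, minus strand) encodes Ki-67, the coat protein of mitotic chromosomes used as a label of cycling cells. It was detected in 26 of 86 astrocytes (30.2%, 20.8 to 41.1%), at 136 CPM in the group, from 0 through a median of 0.172 CPM to 1604 CPM in astrocyte 29. In cultured cortical neurons Mki67 was at 107 CPM, with 1025 CPM in neuron 6, which held 87.7% of the counts, and 243 CPM in neuron 7. It was detected in 1 of 8 hippocampal culture neurons and in none of the 41 slice neurons at depth, and Top2a in none of either. Neither gene was thus detected in any neuron from a slice, while the astrocyte and cultured cortical neuron ranges overlap. Cenpe, Cenpf and Birc5, of the kinetochore and the chromosomal passenger complex, were each detected in 24 of 86 astrocytes, the fewest of their role.

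Tpx2, a factor that seeds spindle microtubules, was detected in 27 of 86 astrocytes, at 32.6 CPM, and in 3 of 13 cultured cortical neurons, at 8.09 CPM. Prc1, which bundles microtubules of the central spindle, was detected in 23 of 86 astrocytes, at 66.1 CPM, and in 3 of 13 cultured cortical neurons, at 63.6 CPM, where neuron 6 held 90.4% of the counts. Nusap1, which binds spindle microtubules, was the one detected in fewest, in 22 of 86 astrocytes, at 49.9 CPM, and in 1 of 13 cultured cortical neurons, at 1.26 CPM. Prc1 and Nusap1 share exonic bases with Rccd1 and Oip5 on the opposite strand. Ube2c, the ubiquitin-conjugating enzyme of the anaphase-promoting complex, was detected in 29 of 86 astrocytes, at 74.5 CPM and up to 1165 CPM in astrocyte 84, and in 3 of 13 cultured cortical neurons, at 58.3 CPM, with 94.3% in neuron 6. Cdc20, the activator of that complex, was detected in 26 of 86 astrocytes, at 21.4 CPM, and in 2 of 13 cultured cortical neurons, at 11.9 CPM. Ube2c and Cdc20 share exonic bases with Tnnc2 and Elovl1, so 8 of the 35 members in all carry this uncertainty.

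Set over all pairs of a gene and a cell, astrocytes had 34.2% of the S phase pairs and 28.1% of the mitosis pairs detected, beside 23.2% over all gene rows. Hippocampal culture neurons had 25% and 11.25%, beside 32.7% over all gene rows. Cortical slice neurons had 3.94% and 0.909% beside 9.91%, CA1 neurons 4.29% and 0.714% beside 8.46%, and CA3 neurons 8% and 3% beside 9.43%. Cultured cortical neurons had 18.97% and 17.3%, beside 17.9%. Astrocytes were the one group with both lists above the share over all gene rows, and the hippocampal culture and slice neurons had both lists below it. Within astrocytes the counts lay in few cells: at least 50% of a member's counts came from a median of 3 cells (range 1 to 7), against a median of 5 cells for the other 9776 genes detected in 10 to 90% of astrocytes. Those genes were not matched to the members for level or detection, and the median member was detected in 27.9% of astrocytes. Ccne1, which had the value of 1, was detected in 6.98% and lay outside that range.

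Against cultured cortical neurons, 22 of the 35 members were at least 2-fold higher in astrocytes and 1, Ccne1, at least 2-fold lower, on the scale of log2(CPM + 1), where 29.8% of the 17473 measured genes were higher and 19.9% lower by as much. The members' median log2 ratio was 1.68, against 0.08 over all measured genes. It was 2.31 for the S phase members, of which 11 were higher and 1 lower, and 1.55 for the mitosis members, of which 11 were higher and 0 lower. The highest ratios were those of Mcm4 at 6.75, Cdc6 at 5.03, Cks2 at 5.02, Tyms at 4.88 and Nusap1 at 4.50. Mki67 and Top2a, both used as labels of division, did not pass 2-fold, at 0.34 and 0.37. Nor did Ccnb1 at 0.14, Prc1 at 0.06 and Birc5 at −0.17, and all 5 had their highest neuron level in cultured cortical neuron 6. Without that cell the median log2 ratio was 3.08, with 32 members higher and 1 lower, and without the 3 neurons with more astrocyte than neuron markers it was 4.38. Other genes of the same processes, from a list of replication genes and a list of mitosis genes that hold no member, went alike. Of 42 measured replication genes 25 were higher and 5 lower, with a median of 2.04, and of 54 mitosis genes 40 were higher and 3 lower, with a median of 2.23.

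The 13 cultured cortical neurons did not share these genes evenly. Neuron 6, at 15 days, had 16 of 20 mitosis genes and 7 of 15 S phase genes detected, with 6009 CPM summed over the mitosis genes and 951 CPM over the S phase genes. Neuron 7, at 13 days, had 15 of 20 and 7 of 15, with 1776 and 285.8 CPM. In these 2 cells together lay a median of 97.5% of a mitosis member's counts, and over 50% for 19 of the 20, the exception being Ccnb2. Of the summed mitosis counts neuron 6 held 79.9% and neuron 7 held 13.2%, against 9.16% and 5.10% of all counts of the group. For the S phase members the median was 35.2%, over 50% for 6 of 15, and the summed shares were 25.3% and 4.24%. The mitosis counts of cultured cortical neurons were thus nearly all in 2 cells and the S phase counts were not.

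Neuron 6 also had 18 of 20 astrocyte markers, 12 of 20 neuron markers, 6 of 8 oligodendrocyte precursor markers, 7 of 10 microglia markers, 4 of 10 fibroblast and meningeal markers and 5 of 8 neural progenitor markers detected. Neuron 7 had 19 of 20 astrocyte markers, 17 of 20 neuron markers, 4 of 8 oligodendrocyte precursor markers, 1 of 10 microglia markers, 5 of 10 fibroblast and meningeal markers and 5 of 8 neural progenitor markers. Their part in the mitosis genes of these cells was not tested. Neuron 4, with 18 of 20 astrocyte markers, had 4 of 20 mitosis genes, and neuron 5, with 16 of 20 astrocyte markers and 18 of 20 neuron markers, had 2. The other 9 neurons had 0 to 2 of 20. By culture age, at least 10 of the 20 mitosis genes were detected in 0 of 3 neurons at 6 days, 0 of 3 at 10 days, 1 of 4 at 13 days and 1 of 3 at 15 days. Median S phase genes detected were 1, 2, 3 and 4 of 15 at these ages, and median mitosis genes 1, 0, 2 and 4 of 20. The libraries at 6 and 15 days were basecalled with an older software version than those at 10 and 13 days, and median genes detected in all were 1240, 1410, 5589.5 and 4922, and neither part in the order of the ages was tested.

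**Figure D3:**
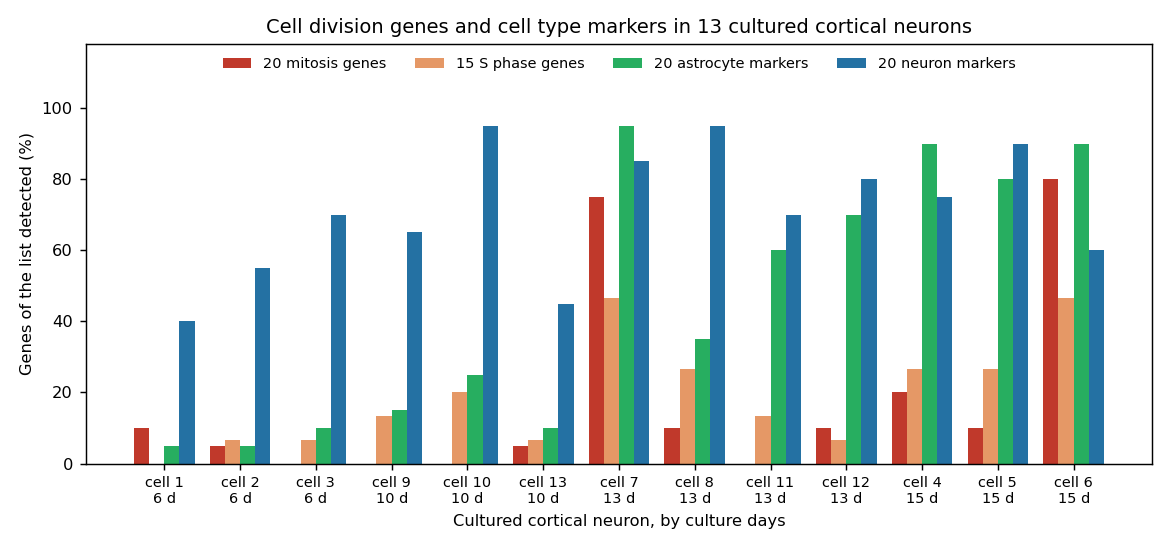
Share of each gene list detected in each of the 13 cultured cortical neurons, in percent of the list, as bars for mitosis genes, S phase genes, astrocyte markers and neuron markers. Neurons 6 and 7 have the tall mitosis bars, 16 and 15 of 20 genes, while the remaining cells have 0 to 4 of 20.

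In cortical slice neurons against cultured cortical neurons, 2 of 33 measured members were at least 2-fold higher and 25 at least 2-fold lower, where 24.7% of the 13741 measured genes were higher and 37% lower by as much. Cdc6 had no count in either group, and Aurka had counts in fewer than 3 cells. The median log2 ratio of the members was −3.16, against −0.24 over all measured genes, and −3.68 for the mitosis members, of which 17 of 19 were lower. Ccnb2 had no count in slice neurons and was at least 439-fold lower than in cultured cortical neurons. The 2 higher members were Mcm4 and Tyms. Mcm4, a helicase subunit, was at 120.6 CPM in cortical slice neurons and 0.0191 CPM in cultured cortical neurons, and 88.3% of the slice counts came from neuron 19, at 2325 CPM, a cell with 10 of 10 microglia markers and 10 of 20 neuron markers detected. Tyms was at 1.68 CPM in cortical slice neurons and 0.253 CPM in cultured cortical neurons. Without the neurons with more astrocyte than neuron markers in either group, the median log2 ratio was −1.32, with 4 members higher and 15 lower of 27. Among other genes of the same processes 16 of 35 replication genes and 35 of 48 mitosis genes were lower, and 4 of each list were higher.

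Cell by cell, no slice neuron deep enough for detection calls had more than 3 S phase genes or more than 1 mitosis gene detected. None of the 35 members was detected in 7 of 14 CA1 and 11 of 22 cortical slice neurons, and each of the 5 CA3 neurons had 1 or 2. The shallow cell, CA1 neuron 12 with 535369 counts, had 262 CPM of Ccnb2 and 24.3 CPM of Nusap1. Cortical slice neuron 4 had the most, with Pcna, Mcm4, Mcm5 and Ccna2, and it also had 6174 genes detected in all, 20 of 20 neuron markers and 9 of 10 microglia markers. Slice neurons had fewer counts and fewer genes detected than cultured neurons, and less RNA drawn from a cell cannot be told apart from a lower level in it.

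In hippocampal culture neurons against cultured cortical neurons, 4 of 33 measured members were at least 2-fold higher and 23 at least 2-fold lower, where 30.3% of the 13485 measured genes were higher and 25.3% lower by as much. The median log2 ratio was −2.08, against 0.15 over all measured genes. Of the mitosis members 16 of 19 were lower and Cks2 was higher, and Tpx2, with no count in hippocampal culture neurons, was at least 237.1-fold lower. Cultured cortical neurons 6, 2 and 7 held 38.7%, 32.5% and 27.5% of the Tpx2 counts of their group. Of the S phase members 7 of 14 were lower and Mcm4, Mcm2 and Tyms were higher. Without the 2 libraries whose titles end in D, 1 of each pair, 5 members were higher and 25 lower, with a median of −1.93, and Pcna was detected in 6 of 6 cells and Ccne1 in 4 of 6. The difference also rested on the cultured cortical neurons named above. Without neuron 6 there were 7 members higher and 17 lower, with a median of −1.14, and without the 3 neurons with more astrocyte than neuron markers there were 9 higher and 11 lower of 30, with a median of 0.073. The groups also differed in strain, C57/BL6 for hippocampal and C57/BL6/N for cortical cells, and strain and brain region cannot be told apart. Culture age and basecalling differed too. All 8 hippocampal cells were at 15 days and of the newer version, while cortical cells were at 6 to 15 days and 6 of 13 were of the older version. The part of age and basecalling in the difference was not tested. Hippocampal culture neuron 5 had the most members, 8 of 15 S phase and 6 of 20 mitosis genes, with Cdk1 at 13.9 CPM and Bub1 at 13.2 CPM.

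Among astrocytes the group levels at 7 and at 14 days differed in opposite directions from those at 12 days. At 7 days, 27 of 35 members were at least 2-fold higher than at 12 days and 1, Ccne1, lower, where 12% of the 16373 measured genes were higher and 43.7% lower by as much. The median log2 ratio was 2.19, against −0.63 over all measured genes, and it was 2.72 for the mitosis members, of which 18 of 20 were higher, and 1.64 for the S phase members, of which 9 of 15 were higher. Mki67 was at 1140.5 CPM at 7 days and 125 CPM at 12 days. Ccna2 was at 1106 CPM at 7 days and 70.9 CPM at 12 days. Bub1b was at 142 CPM at 7 days and 6.10 CPM at 12 days. The 3 cells at 7 days were unequal: astrocytes 1, 2 and 3 had 1534, 891 and 0 CPM of Mki67, 1631, 194 and 142 CPM of Top2a, and 902, 2010.5 and 0 CPM of Pcna. Without astrocyte 1 the counts were 17 higher and 7 lower with a median of 0.79, and without astrocyte 2 they were 20 and 9 with a median of 2.10. Of the other genes of the same processes, 24 of 42 replication genes were higher and 10 lower, and 36 of 54 mitosis genes were higher and 6 lower. The 7-day cells were C57/BL6 and the 12-day cells C57/BL6/N, so age and strain cannot be told apart here. Fibroblast and meningeal markers summed to a median of 20791 CPM at 7 days, against 3968 CPM at 12 days, and their part in the result was not tested.

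At 14 days, 0 of 35 members were at least 2-fold higher than at 12 days and 34 were at least 2-fold lower. Of the 16662 measured genes 14.3% were higher and 24% lower by as much. The median log2 ratio was −3.25, against −0.09 over all measured genes. These ratios compare summed counts, to which single cells can add much. The median cell had 98.3 CPM summed over the mitosis genes at 14 days and 97.6 CPM at 12 days, and the highest cell 262.8 and 18194 CPM. For the S phase genes the median cell had 221.5 and 356.4 CPM, and the highest 304.7 and 13863 CPM. The median cell thus did not share the lower mitosis level of the group. Mki67 was at 1.82 CPM at 14 days and 125 CPM at 12 days, Top2a at 5.19 CPM and 191 CPM, and Cdk1 at 45.6 CPM and 228.2 CPM. Ccnb2 had no count at 14 days and was at least 2695-fold lower than at 12 days. The exception was Aurka, the kinase of centrosomes, at 17.9 CPM at 14 days and 10.5 CPM at 12 days. The 5 cells had 8.57, 76.5, 0.0598, 98.3 and 233.8 CPM of Pcna and 0, 66.3, 185, 21.7 and 16.2 CPM of Cdk1 (astrocytes 16, 18, 21, 23 and 24), so these genes were read in some of them at levels that lie within the range at 12 days. Other replication genes were lower in 28 of 42 and other mitosis genes in 46 of 54. The 14-day cells had a median of 7241 genes detected and 24732197 counts, both above the medians at 12 days, 4923 and 15205664.

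At 15 days, 9 of 35 members were at least 2-fold higher than at 12 days and 3 at least 2-fold lower. Of the 16569 measured genes 12.6% were higher and 19.5% lower by as much. The members' median log2 ratio was 0.04, against −0.08 over all measured genes. Ccne1 had the highest log2 ratio, 4.13, and all but 1 of the 8 cells were under the detection threshold. Cenpe followed with 3.09 and Bub1 with 2.26. Cenpe was at 226, 0, 70.4, 0, 353.3, 3716, 21.8 and 0 CPM in astrocytes 6, 11, 12, 13, 14, 17, 20 and 25, so the excess lay in astrocyte 17, which had 10 of 10 microglia markers and 7 of 20 astrocyte markers detected. The lower members were Rrm2 at −2.24, Ccne2 at −1.62 and Rrm1 at −1.09. Single cells moved the counts: 6 were higher and 10 lower without astrocyte 14, and 7 higher and 6 lower without astrocyte 11 or without astrocyte 12.

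**Figure D4:**
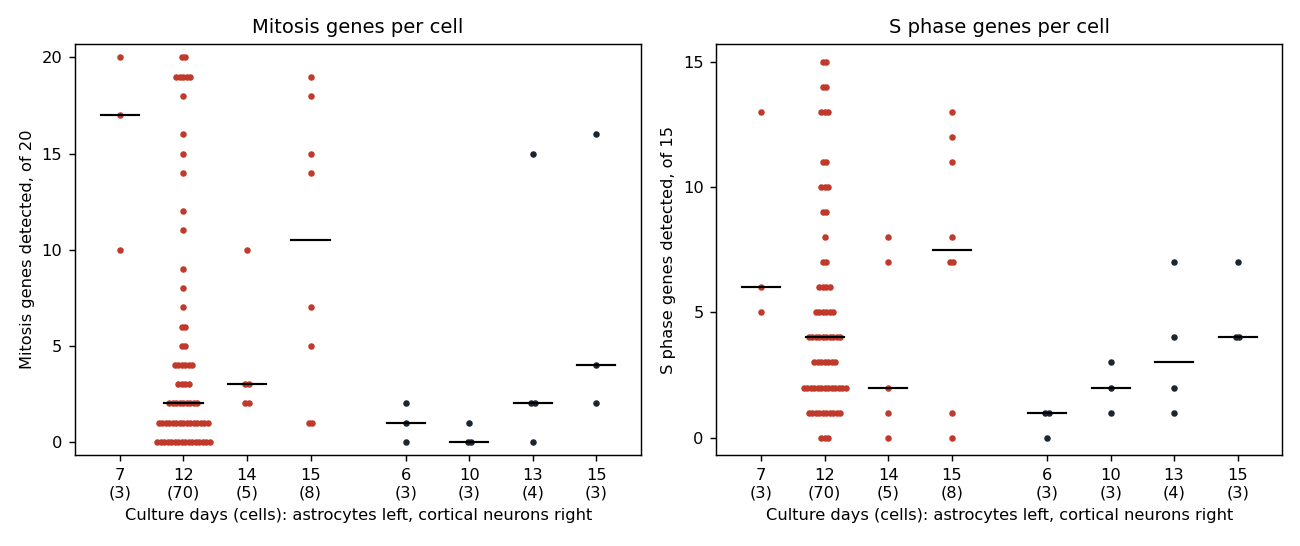
Number of S phase genes (of 15) and mitosis genes (of 20) detected in each astrocyte, by days in culture, with 1 point a cell and lines at the medians. The medians of the mitosis genes are 17, 2, 3 and 10.5 at 7, 12, 14 and 15 days, from 3, 70, 5 and 8 cells.

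Counted by cell, at least 10 of the 20 mitosis genes were detected in 21 of 86 astrocytes (24.4%, 15.8 to 34.9%). By age these were 3 of 3 at 7 days, 13 of 70 at 12 days (18.6%), 1 of 5 at 14 days and 4 of 8 at 15 days. At least 8 of the 15 S phase genes were detected in 21 of 86 astrocytes as well, in 1 of 3, 15 of 70, 1 of 5 and 4 of 8 by age. The counts of mitosis genes had a wide spread: 33 astrocytes had 0 or 1 of 20, and 5 had 8 to 11. In between, 11, 6, 6, 3, 2 and 2 astrocytes had 2, 3, 4, 5, 6 and 7 genes. At the upper end, 6 and 3 astrocytes had 19 and 20. Around the S phase threshold there were 15 astrocytes, at 6 to 9 of 15.

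Both thresholds were passed by 14 astrocytes, the S phase one alone by 7, the mitosis one alone by 7, and neither by 58. Astrocyte 84 had all 20 mitosis genes and 7 of 15 S phase genes, at 18194 CPM summed over the mitosis genes and 1016 CPM over the S phase genes. Astrocyte 1 likewise had 20 and 6, at 14292 and 3278 CPM. At the other end, astrocyte 10 had 9 mitosis genes and 11 S phase genes, at 1916 and 13863 CPM. Astrocyte 8 had 4 mitosis and 13 S phase genes, at 242.05 and 990.05 CPM, and astrocyte 32 had 1 and 9, at 42.3 and 567.8 CPM. Astrocytes 60 and 29 had both, with 19 mitosis and 15 S phase genes in astrocyte 60 and 20 and 14 in astrocyte 29. Cells thus differed in which of the lists led, and these cells are shown as examples chosen after their values were seen.

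**Figure D5:**
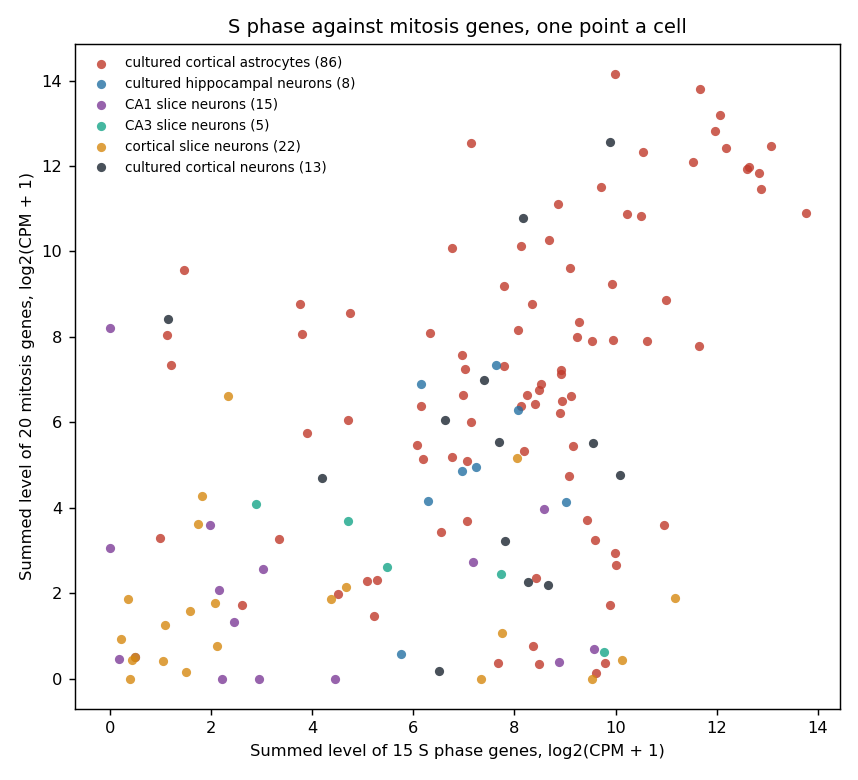
Summed level of the 15 S phase genes against that of the 20 mitosis genes in each of 149 cells, both as log2(CPM + 1), coloured by group. Astrocytes spread over both axes (Pearson r = 0.41, Spearman rho = 0.43 over 86 cells), and slice neurons lie at or below 97.6 CPM of the mitosis genes apart from CA1 neuron 12, the cell too shallow for detection calls, at 293.3 CPM.

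Over the 86 astrocytes, log2 summed levels of the S phase and of the mitosis genes had a Pearson r of 0.41 and a Spearman rho of 0.43, and 0.42 and 0.44 without the 2 cells farthest from the median S phase level. The numbers of genes detected on the lists had r = 0.75 and rho = 0.71. The cells share their amplification method and cortical source, and these values are a description. Deeper detection moved with them: the number of mitosis genes detected had rho = 0.42 with the number of all genes detected, and the number of S phase genes rho = 0.61. With the total count of the cell, the summed mitosis and S phase levels had rho = 0.01 and 0.10. With the astrocyte markers the numbers detected had rho = 0.44 and 0.50 for mitosis and S phase genes. In the same order rho was 0.28 and 0.39 with microglia markers, 0.21 and 0.27 with oligodendrocyte precursor markers, and 0.22 and 0.26 with fibroblast and meningeal markers. It was 0.32 and 0.36 with neural progenitor markers, 0.20 and 0.37 with neuron markers, and 0.03 and 0.18 with endothelial markers. The part of these cell types in the members' values was not tested.

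Most members were closer to their own list than to the other in these cells. For each of the 20 mitosis members, the level had a higher rho with the summed level of the other mitosis members (median 0.59) than with that of the S phase genes (median 0.45). The same held for 11 of the 15 S phase members (median 0.50 with their own list, 0.43 with the other). The exceptions were Rrm2, at 0.50 with its own list and 0.60 with the mitosis genes, Cdc6 at 0.40 and 0.49, Gins2 at 0.41 and 0.42, and Rrm1 at 0.49 with both. Among pairs of members the median rho was 0.54 over 190 pairs of mitosis genes, 0.44 over 105 pairs of S phase genes and 0.40 over 300 pairs across the lists. Cdk1 and Prc1 made the closest pair, at 0.73, with both detected in 21 astrocytes. By role, all 9 helicase loading genes were detected together in 6 astrocytes and any of them in 68. All 4 supply and clamp genes were detected together in 19 and any in 77. All 5 chromosome and centromere genes were detected together in 14 and any in 49, all 3 spindle genes in 15 and any in 35, and both partners of the anaphase-promoting complex in 19 and either in 36.

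Among the 9776 other genes detected in 10 to 90% of astrocytes, the one most like the summed mitosis level was Ckap2l (rho = 0.72), which encodes a spindle protein. Among the 15 most like that level were also Fam64a, Spc24, Cdca3, Spc25, Ndc80, X2810417H13Rik, Ect2, Racgap1, Kif22, Iqgap3, Kif4, Tk1 and Hmmr, down to 0.61. Of these 15, not all of which are named, 10 belong to the list of other mitosis genes and 2 to that of other replication genes. Spc24, Spc25 and Ndc80 encode subunits of the same kinetochore complex, and Ect2 and Racgap1 act in cytokinesis. Among the 15 most like the summed S phase level were Spc25 (0.62), Uhrf1, Rpa2, Tk1, Rad18, Prim1, Dek, Hirip3, X2810417H13Rik, Stmn1, H2afz, Kif4 and Ncapg (0.56). Of these 15, again not all named, 6 belong to the list of other replication genes and 3 to that of other mitosis genes. Rpa2, Prim1 and Uhrf1 encode a single-strand DNA binding protein, a primase subunit and a protein of maintenance methylation. The median rho over all 9776 genes was 0.11 with the mitosis level and 0.14 with the S phase level. In the lists of other genes of the same processes, 52 mitosis genes had a median rho of 0.54 with the mitosis level and 37 replication genes 0.40, and with the S phase level the medians were 0.43 and 0.42. The medians of the lists were apart for the mitosis level and close for the S phase level.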

How the data were processed

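RNA of single cells was amplified in 3 rounds and sequenced from TruSeq Stranded libraries, per the series' design text and the labels' protocols. Reads were basecalled with bcl2fastq 1.8.4 or bcl2fastq2 2.17, and the notes name STAR, HTSeq and the build mm10 (GRCm38), per the submitters' processing notes. The annotation and the versions of STAR and HTSeq were not stated in the sources used here. The authors deposited raw counts per gene and library, of which all sample columns were used.

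From these counts, 9 pairs of repeat libraries were summed, 8 recognised from their titles and 1 from its counts (Pearson r of log2 CPM 0.945 to 0.999 within pairs, at most 0.621 between these libraries and any other). This left 149 cells. The mean level of a group is the CPM of its summed counts. Log2 ratios used CPM with a pseudocount of 1, over genes that had a count in 3 or more cells and 10 or more counts summed over the pair of groups, and a log2 ratio of 1 in size was the threshold. Detection used at least 5 counts after thinning to 1000000 counts (seed 7). The 95% Poisson intervals cover counting error only, and the 95% binomial intervals treat the cells as independent draws. Floors used 3 counts over a group and allow for counting error only, not for which cells were drawn. Each group was 1 sample, so no test was run. The ratio calculation was checked on simulated data in which no gene was made to lie in few cells. That check does not cover ratios set by single cells. Python 3.11.15, numpy 2.4.6, pandas 2.3.3, scipy 1.17.1 and, for scaling factors only, edgeR 4.0.16 and DESeq2 1.42.0 in R 4.3.3 were used. Gene positions came from GENCODE and promoters from RefSeq, both on GRCm38.

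The members and the gene lists were chosen with earlier results of these data known. Named were, in each role, the 2 members detected in most astrocytes and the 1 in fewest, with ties; Mki67, Top2a and Pcna; the 5 members detected in most cultured cortical neurons; the 15 genes most like each summed level; and, for sequences, the 3 members of each list with most searched words in the 250 upstream bases, ties in name order. Not all of the 15 genes most like each level are reported here. Other members named were chosen after their values were seen, among them Rrm2, Ccna2, Mcm4 and the largest ratios. Alternatives changed the scaling, pseudocount, filter, repeat libraries, basecalling version, detection threshold and the cells kept; those for the astrocyte ages were added after seeing the data.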

Additional observations from a re-analysis of the deposited data

Results flagged for a closer look

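A single cell far from the rest of its group was found in 4 of 20 checks, each on a group of 4 to 10 cells, by the gap between the highest or lowest cell and its neighbour; chance marks about 1 in 20 such checks of continuous values, a rate that does not hold for small whole numbers of genes. Cultured cortical neuron 7 had 15 of 20 mitosis genes detected, above the other 3 cultured cortical neurons at 13 days. Cultured cortical neuron 12, of the same age, had the lowest log2 summed level of S phase genes, 4.198. Astrocyte 23 had 10 of 20 mitosis genes detected, above the other 4 astrocytes at 14 days. CA3 neuron 4 had 2 S phase genes detected, Rrm1 and Ccne2, above the other 4 CA3 neurons with 1 each, a difference of a single gene. With the other cells tied, any difference would have been marked. These are values of single cells and no cause was tested.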

How the results depend on the processing

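Of 76 alternative values, 64 stayed within the 95% interval of the reported one (by order statistics over the members for a median, exact binomial for a share, Fisher's z for rho), 11 moved out of it and 1 reversed, and for none was the cause tested. The intervals of the medians are wide and treat the members as independent, though members varied together over the cells. Staying within them does not show that a value was stable. With the first library of each cell alone, the median of astrocytes over cultured cortical neurons stayed within its interval at 2.13. The number of members higher was then 30 in place of 22. The members' median log2 ratio of astrocytes over cultured cortical neurons was 3.43 with libraries of the newer basecalling version alone, 4.38 without the neurons with more astrocyte than neuron markers, and 1.47 to 3.08 with single cells left out. For cortical slice over cultured cortical neurons it was −5.16 with a pseudocount of 0.1 CPM, −1.38 with 5 CPM, −1.32 without those neurons and −3.36 to −2.18 with single cells left out. For hippocampal over cortical culture neurons it reversed to 0.073 without those neurons and was −2.65 to −1.14 with single cells left out; with the newer basecalling version alone it was −1.21, with 9 members higher and 18 lower in place of 4 and 23. For astrocytes, leaving out single cells gave 0.79 to 2.45 at 7 over 12 days, −3.99 to −2.89 at 14 over 12 days and −0.36 to 0.36 at 15 over 12 days, and a pseudocount of 5 CPM gave −2.24 at 14 over 12 days. The share of astrocytes with at least 8 of 15 S phase genes was 39.5% when 1 count made a detection, and 44.2% had at least 5 of 15; the corresponding mitosis share stayed within 18.6 to 29.1%. Spearman's rho between the lists was 0.71 by numbers of genes and 0.41 to 0.45 with single astrocytes left out. Depth kept 1 slice neuron, CA1 neuron 12, out of the detection calls, and a gene below 5 counts in 1000000 was called in no cell. No paired analysis was possible because the labels give no replicate numbers and no result comes from a test.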

Other observations

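Some astrocytes with many members detected also held RNA of microglia markers, picked out after their values were seen. Astrocyte 17 had 10 of 10 microglia markers with 7 mitosis and 8 S phase genes, astrocyte 52 had 8 with 12 and 10, astrocyte 20 had 7 with 15 and 11, and astrocyte 29 had 6 with 20 and 14. Other astrocytes with many members had few: astrocytes 60, 62, 75, 2, 14 and 28, with 30 to 34 of the 35 members, had 1, 1, 0, 0, 1 and 2 microglia markers. Astrocyte 86 had 8 with 0 mitosis and 2 S phase genes. Many members were thus detected with and without microglia markers, and the part of the microglia markers in the members' values was not tested.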
